A study of Mus musculus with 6 samples.

Results

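The cytosolic heat shock genes described here are the transcription factor gene Hsf1 and 9 chaperone genes: the heat-inducible HSP70 genes Hspa1a and Hspa1b, the constitutive HSP70 gene Hspa8, the HSP90 genes Hsp90aa1 and Hsp90ab1, the small heat shock protein genes Hspb1 and Hspb8, the HSP40 gene Dnajb1 and the HSP110 gene Hsph1. They were taken by symbol from an RNA-seq table of mouse embryonic fibroblasts (MEFs), and all 10 were present among its 29955 genes. RNF40 is a subunit of the E3 ubiquitin ligase that monoubiquitinates histone H2B, and the design asked how gene expression differed when Rnf40 was deleted. The table held 3 libraries of Rnf40+/+ MEFs and 3 libraries of Rnf40-/- MEFs. The MEFs were primary cells of embryos that carried floxed Rnf40 (loxP sites around exons 3 and 4) and a tamoxifen-inducible Cre, CreERT2, expressed from the Rosa26 locus. For the deletion, cells received 250 nM 4-hydroxytamoxifen for 5 days, were then kept for 3 days without it and were used at passage 3. Whether the Rnf40+/+ cells also received 4-hydroxytamoxifen, and whether the libraries of a genotype came from separate embryos, is not given in the sources used here. Deletion and treatment therefore cannot be told apart, and the p-values measure the spread between these libraries, which may be technical.

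Heat shock proteins are chaperones that bind unfolded proteins. HSF1 is held inactive by chaperones in unstressed cells, and under heat or proteotoxic stress it forms trimers, enters the nucleus and activates inducible chaperone genes through heat shock elements, which are arrays of the unit GAA in alternating orientation. Constitutive members such as HSC70 (Hspa8) and HSP90-beta (Hsp90ab1) fold client proteins also without stress, so they are among the abundant transcripts of dividing cells.

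Promoter sequences are shown for the inducible genes whose values moved in opposite directions, so that the letters that HSF1 is known to recognize can be seen beside the values. Of the 10 genes, 6 had a window (250 bases before and 50 after the start of transcription) in the RefSeq promoter table, which is on build GRCm38.p6, and each window was found once, letter for letter, in mm9, the build of the deposited data. Hsf1, Hspa8, Hsp90aa1 and Hsp90ab1 had no entry. The windows were searched for pairs of inverted units, GAANNTTC and TTCNNGAA, each of which reads the same on both strands, and for the longer array GAANNTTCNNGAA on either strand, which contains one of each. Below are the 150 bases before the start of 4 genes, 5′ to 3′ on the strand of the gene, with a pair of units in capitals. In mm9 they lie at chr17:35109102-35109251 (minus strand) for Hspa1a, chr17:35096184-35096333 (minus strand) for Hspa1b, chr5:136363639-136363788 (plus strand) for Hspb1 and chr8:86131924-86132073 (plus strand) for Dnajb1.
Hspa1a: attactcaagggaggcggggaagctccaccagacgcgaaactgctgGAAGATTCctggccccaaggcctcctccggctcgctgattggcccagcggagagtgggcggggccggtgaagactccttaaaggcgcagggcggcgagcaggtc
Hspa1b: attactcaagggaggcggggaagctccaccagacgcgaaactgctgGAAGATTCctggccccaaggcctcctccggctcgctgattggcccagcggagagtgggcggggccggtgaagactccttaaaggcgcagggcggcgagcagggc
Hspb1: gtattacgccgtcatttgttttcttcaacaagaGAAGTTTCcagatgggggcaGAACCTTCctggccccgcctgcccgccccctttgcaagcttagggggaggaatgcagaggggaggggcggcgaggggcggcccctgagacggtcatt
Dnajb1: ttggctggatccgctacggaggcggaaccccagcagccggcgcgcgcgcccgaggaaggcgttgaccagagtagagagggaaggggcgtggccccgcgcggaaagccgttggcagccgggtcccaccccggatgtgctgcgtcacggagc
Hspa1a and Hspa1b were identical at 149 of these 150 bases and both held GAAGATTC at positions -104 to -97 from the start. Hspb1 held GAAGTTTC at -117 to -110 and GAACCTTC at -97 to -90. Hspb8 had GAAGTTTC at 3 to 10 after the start. Hsph1 had TTCTCGAA before its start and, after it, an overlapping TTCTGGAA and GAAAGTTC that form the longer array. Neither of the windows of Dnajb1 held a pair. A pair of either kind was thus present in 5 of the 6 genes with a window and in 17.0% of all 27025 genes of the table (15.1% of its 32851 promoters), and the longer array in 1 of the 6 genes and in 0.662% of all genes (0.603% of promoters). A match is a description of the letters and not of HSF1 binding. The lack of a match, as in Dnajb1, does not show that a heat shock element is absent. Imperfect units and bases outside the windows were not searched.

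The libraries held 17053436 to 26344170 reads on genes. Values are normalized counts, that is, reads divided by the size factor of the library (0.837 to 1.25). The test was limma, run on log2(normalized count + 1), and p-values were adjusted by the Benjamini-Hochberg method over 16378 genes, so that each log2 fold change below is Rnf40-/- against Rnf40+/+ on that scale with its SE. Rnf40 itself stood at 1278, 1195 and 1096 normalized counts in Rnf40+/+ and at 439, 519 and 487 in Rnf40-/- MEFs, which left 40.5% of its transcript. The Rnf40+/+ library of replicate 3 stood apart from the others of its genotype (chi-square per gene of the read counts 27.8 and 30.4, against 5.59 to 14.4 in other pairs of 1 genotype), and values without it are given where they matter. The 6 fibroblast markers Col1a1, Col1a2, Col3a1, Vim, Thy1 and Pdgfra were all present. They summed to 346923 to 404387 normalized counts in Rnf40+/+ and 179759.5 to 193915 in Rnf40-/- MEFs. All 6 fell in Rnf40-/- MEFs at an adjusted p under 0.05 in limma, as did 24.1% of all genes. Vim did not pass when libraries were scaled by total reads. In bulk RNA, fewer cells of a type and less RNA per cell cannot be told apart.

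Of the 10 heat shock genes, 3 rose (Hspa1a, Hspa1b and Hsf1) and 3 fell (Hspb1, Dnajb1 and Hspb8) in Rnf40-/- MEFs at an adjusted p under 0.05 in limma, and 4 did not pass (Hspa8, Hsp90aa1, Hsp90ab1 and Hsph1). Of all genes tested, 23.3% rose and 24.1% fell by the same rule, 47.4% in all, so that the share of called genes among the heat shock genes was near the background. The changes were moderate, from 149.8% of the Rnf40+/+ mean in Hspa1a to 55.9% of it in Hspb1. By the criteria of the study (a mean above 15, a log2 fold change beyond 1 in size and an unadjusted p under 0.05), 0 of the 10 genes rose and 0 fell in limma, as also in edgeR and DESeq2, against 4.25% and 5.70% of all genes, 9.95% in all. At an unadjusted p under 0.05 in limma, 7 of the 10 genes and 53.9% of all genes passed. The log2 fold changes of the 10 genes had a median of -0.048, beside -0.0035 over all genes tested. With libraries scaled by total reads, the median of all genes moved to 0.12, 5197 genes rose and 2955 fell in place of 3809 and 3955, and 4 heat shock genes rose and 2 fell. The fourth that rose was then Hspa8, and Hspb8 no longer passed.

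**Figure D1:**
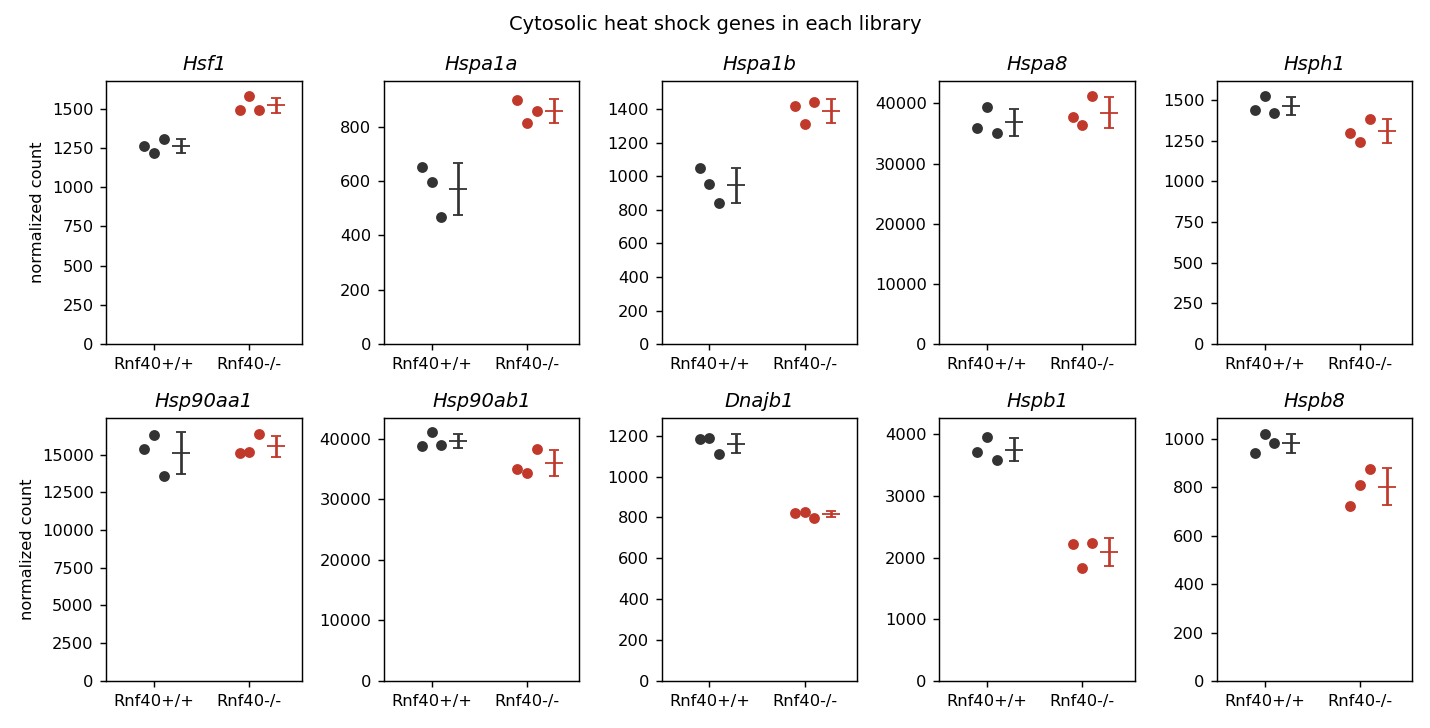
Normalized counts of each of the 10 heat shock genes in the 3 Rnf40+/+ and 3 Rnf40-/- libraries, 1 point per library, with the mean as a line and the SD as a bar beside the points. The genotypes do not overlap for Hsf1, Hspa1a and Hspa1b (higher in Rnf40-/-) and for Hspb1, Hspb8, Dnajb1, Hsp90ab1 and Hsph1 (lower), and they overlap for Hspa8 and Hsp90aa1.

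Hsf1 (chromosome 15, 76307865 to 76331402 in mm9, plus strand) encodes the factor that controls the inducible genes. It stood at 1263.5, 1217 and 1309 normalized counts in Rnf40+/+ and at 1492, 1578 and 1493 in Rnf40-/- MEFs. All Rnf40-/- libraries were above all Rnf40+/+ libraries. Hsf1 rose by a log2 fold change of 0.27 (SE 0.07, limma adjusted p = 0.00565), to 120% of the Rnf40+/+ mean. A rise of this size or larger was seen in 28.4% of the genes tested. The transcript level does not report whether HSF1 protein was active, which was not measured in these libraries.

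Hspa1a and Hspa1b encode the HSP70 proteins that are induced most by heat, and they are neighbours on chromosome 17. Hspa1a (35106144 to 35109069, minus strand) stood at 652, 597 and 466 normalized counts in Rnf40+/+ and at 898, 812 and 858 in Rnf40-/- MEFs. Hspa1b (35093381 to 35096183, minus strand) stood at 1047, 957 and 838 in Rnf40+/+ and at 1418, 1309.8 and 1444 in Rnf40-/- MEFs. For both genes every Rnf40-/- library was above every Rnf40+/+ library, and the lowest value was that of Rnf40+/+ replicate 3. Hspa1a rose by a log2 fold change of 0.59 (SE 0.11, limma adjusted p = 0.00105) and Hspa1b by 0.56 (SE 0.09, limma adjusted p = 0.000267). Without Rnf40+/+ replicate 3 the log2 fold changes were 0.46 and 0.47 and both genes still passed.

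The annotated copies of this pair cannot be separated well by reads. Their coding sequences were identical at 1918 of 1929 bases and their proteins at 641 of 642 residues, and 59.4% of the windows of 50 bases in Hspa1a transcripts also occurred in Hspa1b. How reads that fit both genes were counted is not given in the sources used here, so the values of each gene are uncertain and their sum is the safer measure. Hspa1l also held 8.06% of the windows of Hspa1a and 6.79% of those of Hspa1b, so the sum is not free of shared reads. The annotation also places Gm20481 over Hspa1a on the other strand, and the use of strand in counting is not stated. The sum was 1699, 1553 and 1305 normalized counts in Rnf40+/+ and 2317, 2122 and 2302 in Rnf40-/- MEFs. It rose by a log2 fold change of 0.57 (SE 0.09, 95% interval 0.37 to 0.77, limma adjusted p = 0.000302). The ratio of Hspa1b to Hspa1a was 1.61, 1.60 and 1.80 in Rnf40+/+ and 1.58, 1.61 and 1.68 in Rnf40-/- MEFs, and these ranges overlapped.

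Hspa8 (chromosome 9, 40609067 to 40613283, plus strand) encodes HSC70, the constitutive cytosolic HSP70, whose protein served as a loading control of western blots in the study. It stood at 35945, 39429 and 35156 normalized counts in Rnf40+/+ and at 37659, 36486 and 41291 in Rnf40-/- MEFs, and the genotypes overlapped. The log2 fold change was 0.062 (SE 0.08, 95% interval -0.12 to 0.24, limma adjusted p = 0.559). With libraries scaled by total reads, a scaling chosen after the values were seen, it was 0.19 (limma adjusted p = 0.0466). The small nucleolar RNA genes Snord14c, Snord14d and Snord14e lie within the gene on the same strand. Hspa1a and Hspa8 proteins were identical at 84.4% of aligned residues, but their transcripts shared no window of 50 bases.

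The ratio of inducible to constitutive HSP70 reads was computed within each library, where the size factor cancels. Hspa1a plus Hspa1b amounted to 4.73%, 3.94% and 3.71% of Hspa8 in Rnf40+/+ and to 6.15%, 5.82% and 5.57% in Rnf40-/- MEFs. The ranges did not overlap and the ratio was 1.42 times as high in Rnf40-/- MEFs (log2 difference 0.51, two-sided exact permutation p = 0.1, the smallest that 3 against 3 libraries allow). The members of the ratio were not scaled by length, so it is a ratio of reads and not of molecules.

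Hsph1 (chromosome 5, 150416862 to 150438951, minus strand) encodes HSP110, a nucleotide exchange factor of HSP70. It stood at 1438, 1524 and 1421 normalized counts in Rnf40+/+ and at 1299, 1238 and 1384 in Rnf40-/- MEFs. The ranges did not overlap, but the log2 fold change of -0.16 did not pass the test (SE 0.07, 95% interval -0.31 to -0.0082, limma adjusted p = 0.0779).

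Dnajb1 (chromosome 8, 86132074 to 86135801, plus strand) encodes HSP40, which delivers clients to HSP70 and stimulates its ATPase. It stood at 1183, 1191 and 1109 normalized counts in Rnf40+/+ and at 823, 824 and 799.7 in Rnf40-/- MEFs. The 3 Rnf40-/- libraries lay close together and below every Rnf40+/+ library. Dnajb1 fell by 0.51 on the log2 scale (SE 0.07, limma adjusted p = 9.51e-05), to 70.2% of the Rnf40+/+ mean. A fall of this size or larger was seen in 17.9% of the genes tested. HSF1 is known to activate both Dnajb1 and the HSP70 pair under heat, and in these libraries Dnajb1 was lower where Hspa1a and Hspa1b were higher.

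**Figure D2:**
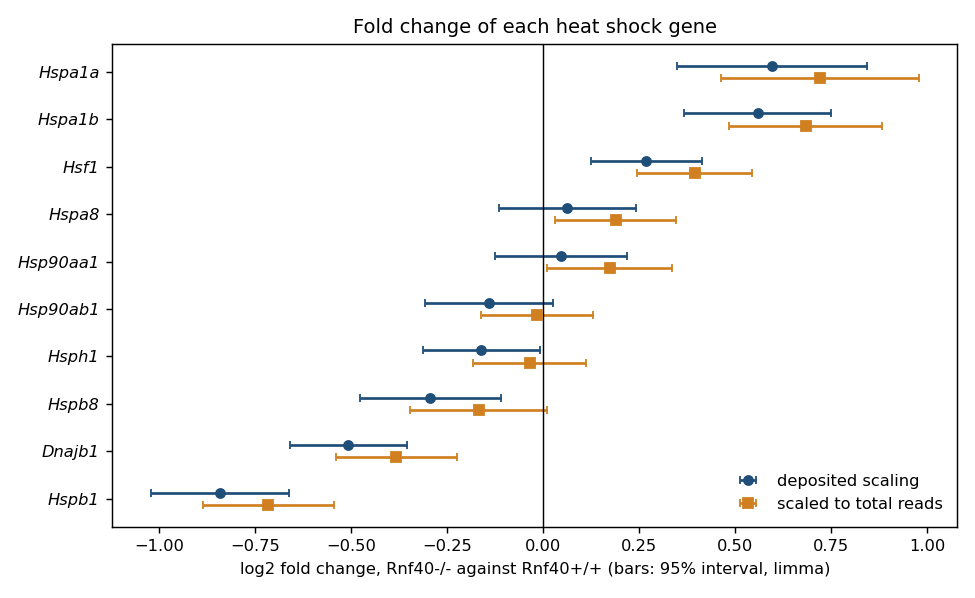
Log2 fold change of each heat shock gene in Rnf40-/- against Rnf40+/+ MEFs from limma, with the 95% interval as a bar, for the deposited scaling (circles) and for libraries scaled to total reads (squares). With the deposited scaling Hspa1a, Hspa1b and Hsf1 lie above 0, Hspb1, Dnajb1 and Hspb8 lie below 0, and the intervals of Hspa8, Hsp90aa1 and Hsp90ab1 include 0; Hsph1 ends at -0.0082 and did not pass after adjustment. All squares lie to the right of the circles, and none of the 10 genes changes sign.

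The HSP90 genes encode the dimeric chaperone that matures kinases and steroid receptors. Hsp90aa1, the inducible form (chromosome 12, 111928815 to 111940938, minus strand), stood at 15360.3, 16307 and 13589 normalized counts in Rnf40+/+ and at 15111, 15177 and 16348 in Rnf40-/- MEFs. Hsp90ab1, the constitutive form (chromosome 17, 45704724 to 45710220, minus strand), stood at 38821, 41039 and 39006 in Rnf40+/+ and at 35075, 34361 and 38387 in Rnf40-/- MEFs. The genotypes overlapped for Hsp90aa1 and did not overlap for Hsp90ab1, which was lower in every Rnf40-/- library. Neither passed the test: the log2 fold change of Hsp90aa1 was 0.046 (95% interval -0.13 to 0.22, limma adjusted p = 0.656) and that of Hsp90ab1 was -0.14 (95% interval -0.31 to 0.03, limma adjusted p = 0.151).

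The inducible form was nevertheless higher relative to the constitutive one. The ratio of Hsp90aa1 to Hsp90ab1 reads was 0.396, 0.397 and 0.348 in Rnf40+/+ and 0.431, 0.442 and 0.426 in Rnf40-/- MEFs, and the ranges did not overlap. The ratio was higher in Rnf40-/- MEFs by a log2 difference of 0.19 (two-sided exact permutation p = 0.1, the smallest possible). Rnf40+/+ replicate 3 had the lowest ratio, and without it the log2 difference was 0.13. The proteins were identical at 628 of 733 aligned residues, and their transcripts shared no window of 50 bases.

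**Figure D3:**
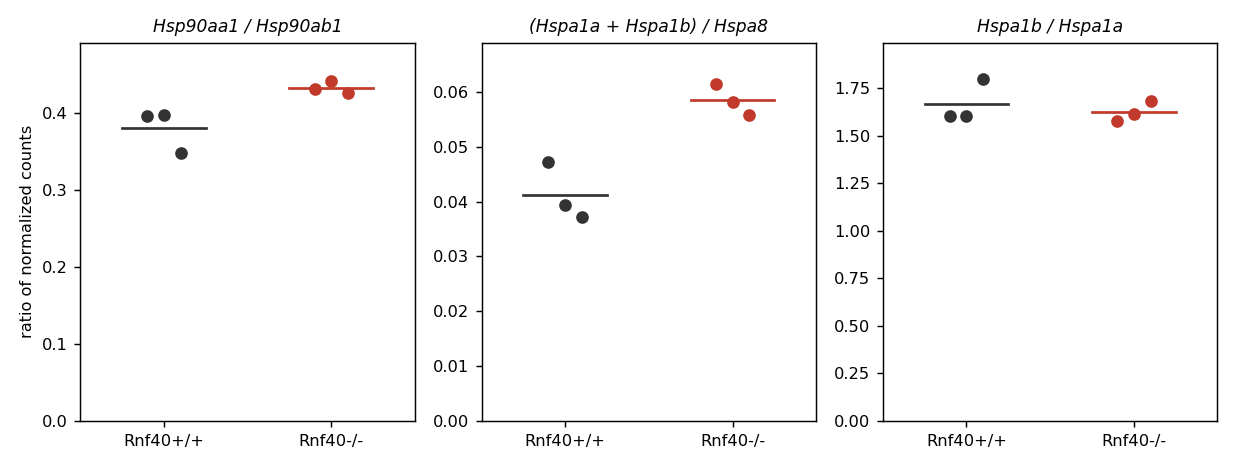
Ratio of Hsp90aa1 to Hsp90ab1, of Hspa1a plus Hspa1b to Hspa8 (as a fraction) and of Hspa1b to Hspa1a in each library, from normalized counts, 1 point per library with the mean of each genotype as a line. The 3 Rnf40-/- libraries lie above the 3 Rnf40+/+ libraries for the ratios in the left and middle panels, by log2 differences of 0.19 and 0.51, and the genotypes overlap for Hspa1b to Hspa1a.

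Hspb1 and Hspb8 encode small heat shock proteins, which hold unfolded proteins without using ATP. HSP27, the product of Hspb1, also binds to the actin cytoskeleton, and HSPB8 works with BAG3 in selective autophagy. Hspb1 (chromosome 5, 136363789 to 136365433, plus strand) stood at 3709, 3962 and 3589.6 normalized counts in Rnf40+/+ and at 2224, 1838 and 2238 in Rnf40-/- MEFs. All Rnf40-/- libraries were far below the Rnf40+/+ libraries. It fell by 0.84 on the log2 scale (SE 0.08, limma adjusted p = 6.8e-06), which was larger than any other change among the 10 genes. Of the genes tested, 8.47% fell as much or more. Hspb8 (chromosome 5, 116858500 to 116872873, minus strand) stood at 943, 1021 and 983 in Rnf40+/+ and at 724, 808 and 877 in Rnf40-/- MEFs. It fell by 0.29 (SE 0.08, limma adjusted p = 0.0127). The lowest Rnf40-/- value was that of replicate 1, and without it the log2 fold change of Hspb8 was -0.22 and did not pass (limma adjusted p = 0.081), nor did it with libraries scaled by total reads (-0.17, adjusted p = 0.106).

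Considering all 10 genes, the genotypes did not overlap in 8: 3 were higher and 5 lower in Rnf40-/- MEFs. Among all genes tested, 27.8% were higher and 28.7% lower without overlap, 56.5% in all. The summed normalized counts of the 10 genes were 100364, 107242 and 97468 in Rnf40+/+ and 96724, 94431 and 105119 in Rnf40-/- MEFs, and these ranges overlapped. Hspa8, Hsp90ab1 and Hsp90aa1 made up 90.0% of the sum in Rnf40+/+ and 91.1% in Rnf40-/- MEFs, so that the sum says little about the genes that changed.

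To compare levels between genes, normalized counts were divided by transcript length in kb. In Rnf40+/+ MEFs, Hsp90ab1 (15723 ± 488 normalized counts per kb, SD, n = 3) and Hspa8 (15390 ± 950) stood highest, and their ranges overlapped. Hsp90aa1 (4598 ± 420) and Hspb1 (4157 ± 210) came next, also with overlapping ranges. Hsf1 followed at 606 ± 22.1, then Hspb8 at 541 ± 21.3 and Dnajb1 at 513 ± 20.0, of which Hspb8 and Dnajb1 overlapped. Hsph1 had 384 ± 14.4, Hspa1b 338 ± 37.4 and Hspa1a 195 ± 32.6 normalized counts per kb; the ranges of Hsph1 and Hspa1b all but touched. In Rnf40-/- MEFs, Hspa8 stood at 16073 and Hsp90ab1 at 14262 per kb, Hsp90aa1 at 4738 and Hspb1 at 2325. The lower part of the order was Hsf1 (730), Hspa1b (496), Hspb8 (442), Dnajb1 (360), Hsph1 (344) and Hspa1a (293), of which Hspa1b and Hspb8 overlapped, as did Dnajb1 and Hsph1. Hspa1b was above Dnajb1 and Hsph1 without overlap, where it had been below both in Rnf40+/+ MEFs, but its separate value is uncertain because it shares reads with Hspa1a.

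**Figure D4:**
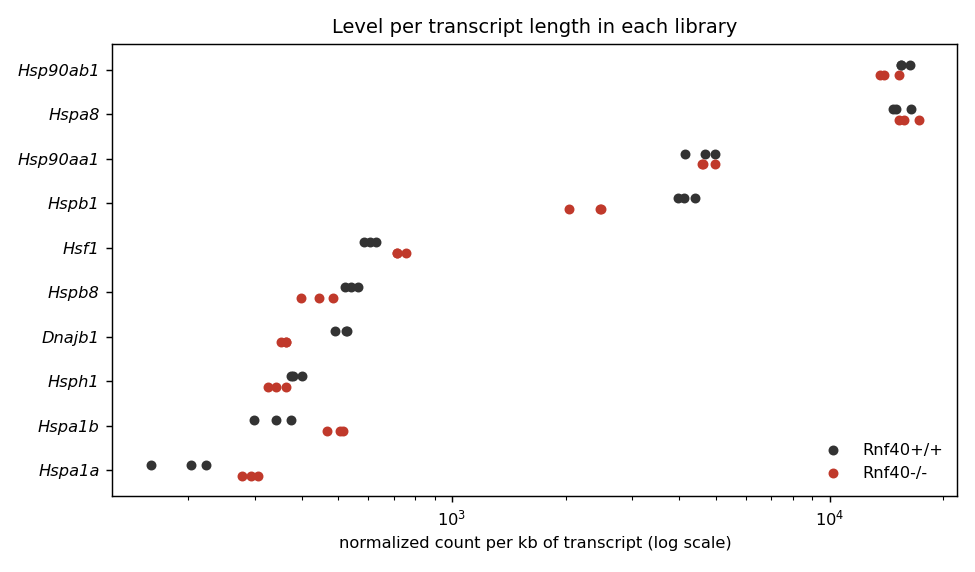
Normalized counts per kb of transcript of the 10 heat shock genes on a log axis, 1 point per library. The constitutive Hsp90ab1 and Hspa8 stand at the top in both genotypes, and Hspa1a stands at the bottom in both, at 195 in Rnf40+/+ and 293 in Rnf40-/- MEFs.

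Other chaperone genes were described by lists. Of 73 genes in 9 lists, 70 were tested, and 17 rose and 15 fell at an adjusted p under 0.05, with a median log2 fold change of -0.014. These shares were close to those of all genes, of which 23.3% rose and 24.1% fell, the background for each list below. With libraries scaled by total reads, 28 rose and 10 fell, and of all 16378 genes 5197 rose and 2955 fell. Among HSF family genes and HSF1 regulators, 3 of 7 rose and 0 fell by limma, with 4 of 7 at an unadjusted p under 0.05 (53.9% of all genes), and the calls were as many with total-read scaling. Hsf2, which encodes a factor that can pair with HSF1, stood at 547, 614 and 489 normalized counts in Rnf40+/+ and at 815, 795 and 868 in Rnf40-/- MEFs, a rise of 0.59 (SE 0.09, limma adjusted p = 0.000288). The means of Trpc4ap were 3718 and 4861 (log2 fold change 0.39).

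Of 8 other HSP70 and HSP110 genes, 1 rose and 2 fell, but with total-read scaling 4 rose (Hspa1l, Hspa4 and Hspa13 in addition) and 1 fell. The value of Hspa1l is uncertain because it shares sequence with Hspa1a and Hspa1b. Hspa4l, another HSP110, rose by a log2 fold change of 0.54. Hspa12b and Hspa2 fell by 0.58 and 0.32 on the log2 scale, of which Hspa2 no longer passed with that scaling or without Rnf40-/- replicate 1 (adjusted p = 0.051). Of 10 other cytosolic DNAJ co-chaperones, 5 rose and 2 fell with either scaling. Dnaja4 and Dnajc5 rose by log2 fold changes of 0.41 and 0.40, whereas Dnajb5 fell by 1.06 (SE 0.10, limma adjusted p = 3.5e-06) and Dnajb4 by 0.42. DNAJB4 and DNAJB5 are close relatives of DNAJB1. The rise of Dnaja1 (log2 fold change 0.17) passed without Rnf40+/+ replicate 1 but not without any other single library, and that of Dnaja2 (0.17) passed without Rnf40+/+ replicate 2 but not without any other. The rise of Dnajb6 did not pass without Rnf40-/- replicate 1 (adjusted p = 0.0596).

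Among 8 genes of HSP70 nucleotide exchange and CHIP, 0 rose and 3 fell by limma, with 4 at an unadjusted p under 0.05 (53.9% of all genes). With total-read scaling 1 rose (Bag4) and 1 fell (Bag2). The third that fell, Bag5, also lost its call without any single library other than Rnf40+/+ replicate 1 (adjusted p from 0.0541 to 0.164). Bag2, whose product inhibits the ubiquitin ligase CHIP, fell from a mean of 1771 to 944 normalized counts (log2 fold change -0.91, limma adjusted p = 1.59e-06). Bag3, a stress-induced gene whose product works with HSPB8, fell by 0.19 (limma adjusted p = 0.041) but did not pass with total-read scaling (adjusted p = 0.439) or without replicate 2 or 3 of Rnf40+/+ or replicate 1 or 2 of Rnf40-/- MEFs (adjusted p from 0.0727 to 0.17). Of 14 HSP90 co-chaperones, 3 rose and 3 fell, and 6 rose and 3 fell with total-read scaling, which added Stip1, Ppid and Sugt1. The immunophilin genes Fkbp5 and Fkbp4, whose products act with HSP90 on steroid receptors, fell by 0.99 and 0.86 on the log2 scale. Cdc37l1 and Tomm34 rose by log2 fold changes of 0.69 and 0.60.

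Of 8 other small heat shock protein genes, 5 were tested, 1 rose and 2 fell. Cryab, the alpha-B crystallin gene, stood at 4598, 5190 and 4351 normalized counts in Rnf40+/+ and at 6415, 6289 and 7316 in Rnf40-/- MEFs. Hspb6 stood at 500.4, 481 and 436 in Rnf40+/+ and at 207, 247 and 213 in Rnf40-/- MEFs. Cryab rose (log2 fold change 0.50, SE 0.08, limma adjusted p = 0.000347) and Hspb6 fell by 1.08 (SE 0.11, limma adjusted p = 8.22e-06), so that the small heat shock protein genes moved in both directions. Hspb11 fell by 0.26 and did not pass with total-read scaling, which left 1 rise and 1 fall, nor without replicate 1 or 3 of Rnf40+/+ or replicate 1 or 2 of Rnf40-/- MEFs (adjusted p from 0.0901 to 0.148).

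Of the 8 TRiC/CCT chaperonin genes, whose products fold actin and tubulin, 4 rose and 1 fell, and with total-read scaling 6 rose (Cct2 and Cct4 in addition) and 0 fell. One of the 4, Cct3, did not pass without Rnf40+/+ replicate 1 or Rnf40-/- replicate 1 or 3 (adjusted p from 0.0675 to 0.0794). Cct7 and Cct5 rose by log2 fold changes of 0.47 and 0.29, and Tcp1 fell by 0.21, a call that was lost with total-read scaling and without Rnf40+/+ replicate 2 or Rnf40-/- replicate 1 or 2 (adjusted p from 0.074 to 0.106). Of 7 mitochondrial chaperone genes, 0 rose and 1 fell by limma, with 2 at an unadjusted p under 0.05 (53.9% of all genes), and with total-read scaling 2 rose (Trap1 and Dnaja3) and 1 fell. The gene that fell was Hspa9, the mitochondrial HSP70, with means of 14076 and 9894 normalized counts (log2 fold change -0.51). Of 3 stress-induced ubiquitin genes, Sqstm1, the autophagy receptor p62, fell from a mean of 11905 to 6437 (log2 fold change -0.89). Of 9 immediate early genes, which respond within minutes to serum or handling, 5 rose and 4 fell (23.3% and 24.1% of all genes). Of these, Jun did not pass with total-read scaling. Atf3 and Dusp1 rose by log2 fold changes of 0.97 and 0.80, Egr1 fell from a mean of 2523 to 1137 normalized counts, and Fosb fell by 0.86 on the log2 scale. The part of such responses in the heat shock genes was not tested.

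**Figure D5:**
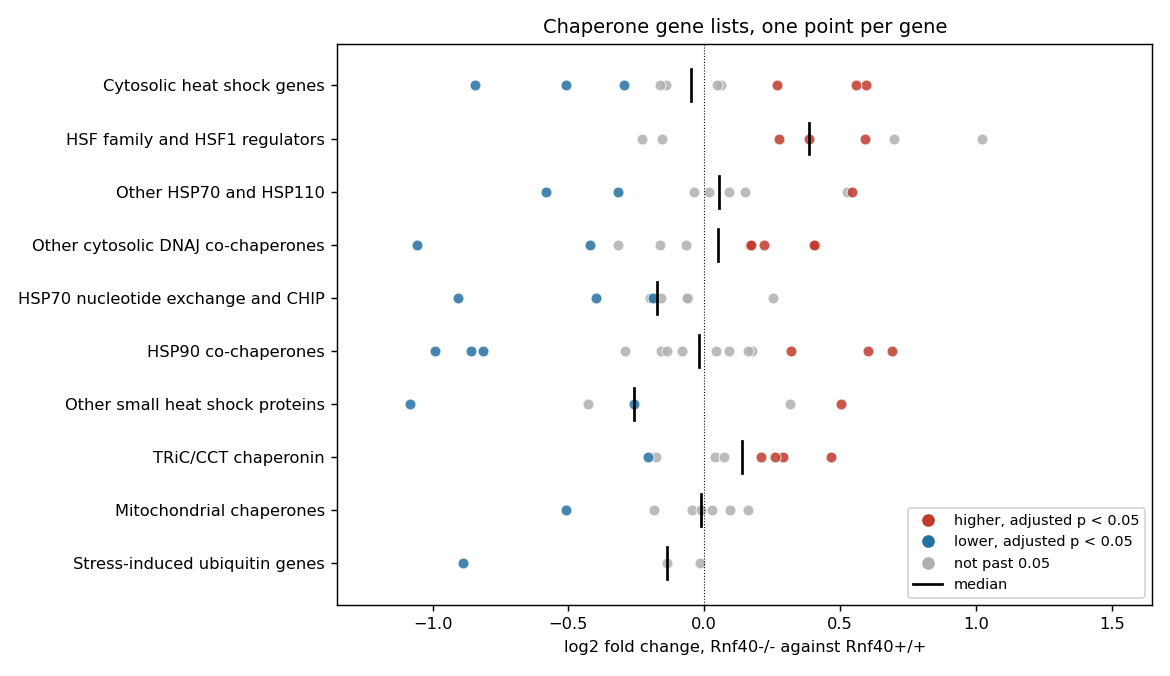
Log2 fold change in Rnf40-/- against Rnf40+/+ MEFs of each tested gene of the cytosolic heat shock genes and the other chaperone lists, 1 point per gene, coloured by limma call, with the list median as a line. Genes that rose and genes that fell occur side by side among the heat shock genes, other HSP70 and HSP110, DNAJ, HSP90 co-chaperone, other small heat shock protein and TRiC/CCT genes, and list medians lie between -0.26 and 0.39.

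The expression pattern of the inducible HSP70 pair across the 6 libraries was compared with all other genes. The genes most like the sum of Hspa1a and Hspa1b were Tbc1d9b (Pearson r 0.999), Usp16 (0.998), AK192827 (0.996), Fam133b (0.996) and Sox13 (0.996), over 6 libraries that share genotypes and scaling. An r above 0.9 was reached by 1755 of 16376 genes, or 10.7%, so that such values are common with 6 points. Among the other heat shock genes, r was 0.81 for Hsf1, 0.51 for Hsp90aa1 and 0.50 for Hspa8. It was -0.67 for both Hsp90ab1 and Hsph1, -0.83 for Hspb8, -0.85 for Hspb1 and -0.88 for Dnajb1.

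Some markers of other cell types moved with genotype. The calls below are by limma at an adjusted p under 0.05, at which 23.3% of all genes rose and 24.1% fell. The 8 macrophage markers summed to 5701, 6317 and 11366 normalized counts in Rnf40+/+ and to 3479.5 to 3899 in Rnf40-/- MEFs, with 1 higher and 4 lower. The 4 lower were Lyz2, Tyrobp, C1qa and C1qb, whereas Ptprc rose from a mean of 62.6 to 160 normalized counts (limma adjusted p = 0.00012). Csf1r, Cd68 and Emr1 did not pass, so the macrophage markers did not move together. Most of the macrophage sum was Lyz2, at 3945, 4557 and 7440 in Rnf40+/+ MEFs, a level above that of Hsf1, Hspa1a and Hspa1b. The high sum was that of Rnf40+/+ replicate 3, which of all libraries had the lowest Hspa1a, Hspa1b, Hsp90aa1 and Hspa8 values. Among Rnf40+/+ libraries it also had the lowest Hspb1, Dnajb1 and Hsph1 and the highest Hsf1. It lay between the others for Hsp90ab1 and Hspb8. C1qa stood at 386, 395 and 1211 in Rnf40+/+ MEFs. The 4 endothelial markers summed to 46.9 to 143 and 173 to 265, with 3 higher. Of these, Pecam1 had 4, 4 and 3 reads and Cdh5 2, 5 and 1 reads in Rnf40+/+ libraries, around the limit of detection of 3 reads. The epithelial markers summed to 23.5 to 83.6 and 24.0 to 42.8, and the muscle markers to 118 to 437 and 27.1 to 44.9, with Des lower and Myod1 at 0 in all libraries. Rnf40+/+ replicate 1 gave the highest Rnf40+/+ endothelial, epithelial and muscle sums, with Tek at 115, Krt8 at 58.5 and Des at 431. The part of these cells in the values of the heat shock genes was not tested.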

How the data were processed

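RNA-seq libraries of 3 Rnf40+/+ and 3 Rnf40-/- MEF samples were made from total RNA with a directional kit. The authors mapped reads to the mm9 transcriptome and normalized them with DESeq, so the deposited values are a signal of reads divided by a size factor per library. The submitters' processing notes name Bowtie2 2.1.0 and DESeq 1.14.0, and the counting tool is not given in the sources used here. After recovery of the size factors, 100% of positive values came out as whole reads (tolerance 0.01). Genes kept by filterByExpr of edgeR 4.0.16 on these reads were tested with limma 3.58.1 (lmFit, eBayes with trend) in R 4.3.3, two-sided, with genotype as the only term and a pseudocount of 1. Intervals are 95% and come from limma. A count of 3 reads, the limit of detection used, corresponds to 2.40 to 3.58 normalized counts, and no heat shock gene had fewer than 546 reads. Statistics were tested on simulated data.

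The genes and lists were chosen with earlier results of these data known. In each list, up to 2 genes with the largest rise and 2 with the largest fall are named among called genes without overlap of genotypes. The exceptions are genes named for calls gained or lost (Dnaja1, Dnaja2, Dnajb6, Hspa1l, Hspa4, Hspa13, Bag4, Bag5, Stip1, Ppid, Sugt1, Cct2, Cct3, Cct4, Trap1, Dnaja3 and Jun), chosen after their values were seen, and the ratio of Hspa1b to Hspa1a, added after the values were seen. Alternatives were DESeq2 1.42.0 (size factors and Wald test), upper-quartile scaling, the quasi-likelihood test of edgeR, no filter, a minimum of 10 reads in all libraries, a pseudocount of 0.1 or 10, the replicate number as a block, leaving out each library, the sum of Hspa1a and Hspa1b and, chosen after seeing the data, total-read scaling. Positions are from the GENCODE annotation of mm9, and levels per kb use the length of the transcript with the longest coding sequence.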

Additional observations from a re-analysis of the deposited data

How the results depend on the processing

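The rises of Hsf1, Hspa1a and Hspa1b and the falls of Hspb1 and Dnajb1 kept their direction and passed the threshold under every alternative run, where the HSP70 pair was tested. Hspb8 lost its call in 2 of them and Hspa8 gained one with total-read scaling, as given with their values. Not every alternative could differ. DESeq2 size factors gave back the deposited scaling, with the same 3809 and 3955 calls. The filters and the replicate block leave each log2 fold change as it was and can alter only the p-values. Hsp90aa1, which was not called, turned to a log2 fold change of -0.027 without Rnf40+/+ replicate 3 (limma adjusted p = 0.779), in a range up to 0.10 with other libraries left out, and the cause was not tested. Related chaperone genes that rose numbered 28 in place of 17 with total-read scaling, which moved the median of all genes upward to 0.12. The normalized counts of all genes summed to 18906131 to 19351860 in Rnf40-/- and to 20365864 to 21191704 in Rnf40+/+ libraries. Genes that rose by the criteria of the study numbered 453 in place of 696 with at least 10 reads in every library, where fewer genes are tested. Over all genes, edgeR called 3857 higher and 3940 lower, and DESeq2 called 3563 and 3726. With a library left out, 3051 to 3817 genes rose and 3342 to 3896 fell. The log2 differences of the ratios then ranged from 0.13 to 0.22 for Hsp90aa1 to Hsp90ab1 and from 0.44 to 0.61 for Hspa1a plus Hspa1b to Hspa8. Same-numbered libraries hardly deviated together (correlations 0.035, 0.0026 and 0.061 over 14912 genes). With 3 libraries per genotype, these correlations cannot decide whether the numbers pair the libraries. With a replicate block, 4021 genes rose and 4196 fell, in place of 3809 and 3955, and 3 heat shock genes rose and 3 fell. A sign-flip test over same-numbered pairs gave an exact p of 0.25 for both ratios, the smallest for 3 pairs. Depth did not limit the heat shock genes, which had between 546 and 48845 reads in a library; 3 libraries per genotype limit the precision.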
